A study of Mus musculus with 12 samples.

Results

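A pooled lentiviral screen with a mouse kinase shRNA library also carried hairpins against genes whose products are not protein kinases. All hairpins in the count table whose symbol is KCNH2, PODXL, CPT1B, AFF1 or NPAS3 are described here, which are 25 of 3243 hairpins, 5 for each gene, among 732 symbols. The hairpins were selected by symbol, and the genes were chosen with results of these libraries already known, those of the sorted 2i GFP+ cells among them. Which values chose each gene is not recorded, for CPT1B in particular. In every comparison that includes the 2i GFP+ libraries, fold changes and calls past the thresholds are therefore a description only, with no p-value. For 2i GFP- against Serum/LIF day 7 and Serum/LIF day 7 against Serum/LIF day 0 the p-values are given, but these comparisons are not free of the choice, since 2i GFP- and Serum/LIF day 7 are the libraries that 2i GFP+ is set against.

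The cells were E14 mouse embryonic stem cells (mESCs) that express a UHRF1-GFP transgene, so that the fluorescence reports UHRF1 only indirectly. Serum/LIF cells were transduced with the library at low multiplicity, selected with puromycin and split between media. All groups carry both the transgene and the hairpins. The 4 groups, each with 3 libraries (A, B and C), were the 2i GFP+ and 2i GFP- fractions, sorted on GFP after 7 days in serum-free N2B27 with LIF, PD0325901 and CHIR99021, unsorted Serum/LIF day 7 cells kept in serum with LIF, and unsorted Serum/LIF day 0 cells taken at the split. The hairpins were amplified from genomic DNA and sequenced, and each value is a raw read count per hairpin or a level computed from it. Such a level is a hairpin's share of the amplified DNA and does not measure how far its target was knocked down. The study calls its replicates biological, but no source names separate transductions for the 3 libraries of a group, so p-values measure only the spread between these samples, part of which may be technical.

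UHRF1 recognises hemimethylated CpG sites behind the replication fork and recruits the maintenance DNA methyltransferase, and its protein is lost when mESCs enter the naive ground state in 2i, a medium that inhibits MEK and GSK3. A hairpin whose target is needed for that loss would leave its cells fluorescent and its own sequence more frequent in the GFP+ fraction. The 5 targets belong to different kinds of protein. KCNH2 is the pore-forming subunit of a voltage-gated potassium channel that repolarises heart muscle and carries a PAS domain at its N-terminus, and NPAS3 is a neuronal bHLH-PAS transcription factor. PODXL, or podocalyxin, is a heavily sialylated membrane protein of the CD34 family, CPT1B is the muscle enzyme that loads long-chain fatty acids onto carnitine for import into mitochondria, and AFF1 is a scaffold of the super elongation complex that activates transcription by RNA polymerase II.

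Total counts ran from 2435551 to 5466825 per library. The 2i GFP+ libraries held 1538 to 1906 of the 3243 hairpins and 18 to 20 of the 25, whereas 2i GFP- libraries held 2782 to 2856 and 23 to 24, Serum/LIF day 7 libraries 2989 to 3053 and 24 to 25, and Serum/LIF day 0 libraries 2850 to 2925 and 24. Library B of 2i GFP+ stood apart, with a Spearman correlation over hairpins of 0.741 with library A and 0.738 with library C, against 0.933 between A and C and 0.882 to 0.976 within the other groups. For many hairpins whose result rests on it, values are given with and without it. Levels are library-scaled counts (CPM) with trimmed mean of M-values (TMM) factors over all 12 libraries, which were 0.63 to 0.712 in 2i GFP+ and 1.08 to 1.21 elsewhere. Over all tested hairpins the median log2 fold change was -0.884 with TMM and -1.61 with total count scaling in 2i GFP+ against 2i GFP-, -1.42 and -2.17 in 2i GFP+ against Serum/LIF day 7, and -0.0155 and -0.123 in Serum/LIF day 7 against Serum/LIF day 0. Higher calls made up 26.8% of all calls with TMM and 14.7% with total count scaling in the first of these, 23.5% and 13.4% in the second, and 46.2% and 31.1% in the third.

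The 25 hairpins together took 1.3% to 2.38% of the counts in 2i GFP+, 1.04% to 1.09% in 2i GFP-, 1.18% to 1.21% in Serum/LIF day 7 and 0.97% to 1.02% in Serum/LIF day 0. A call needed both an adjusted p under 0.05 in the edgeR quasi-likelihood test, by Benjamini-Hochberg, and a fold limit of more than 1 in either direction on the log2 scale. In 2i GFP+ against 2i GFP-, 5 of the 22 tested hairpins of the 5 genes were called higher and 3 lower, where 8.58% and 23.5% of all 2600 tested hairpins were called higher and lower. In 2i GFP+ against Serum/LIF day 7, 5 of 24 were called higher and 6 lower, where 9.81% and 31.9% of 2906 were. These 4 counts include the values that chose the genes, and the median log2 fold changes of 0.427 and -0.535 for the 5 genes, beside -0.884 and -1.42 for all hairpins, carry the same selection. With fitted values of hairpins at 0 replaced by their bounds, the medians over all hairpins were -0.875 and -1.38 and those of the 5 genes stayed at 0.427 and -0.535.

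These counts changed with the libraries left out, as did those over all hairpins. Without library B of 2i GFP+, the comparison with 2i GFP- gave 5 higher and 6 lower calls among the 5 genes, where 15.4% and 38.5% of all tested hairpins were called, and the comparison with Serum/LIF day 7 gave 6 higher and 9 lower, where 16.8% and 47.6% were. Without library A, B or C of 2i GFP-, 1, 2 and 1 higher calls among the 5 genes were left in 2i GFP+ against 2i GFP-, where the higher calls over all hairpins were 131, 138 and 129 in place of 223. Without library B of 2i GFP-, 1 lower call was left, where 521 of the 610 over all hairpins were. Without library A, B or C of Serum/LIF day 7, 2 higher calls were left each time in 2i GFP+ against Serum/LIF day 7, where those over all hairpins were 197, 194 and 200 in place of 285, and without library A 3 lower calls were left, where 831 of 926 were.

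In the comparisons without 2i GFP+ libraries, all 25 hairpins were tested and few were called. The comparison of 2i GFP- with Serum/LIF day 7 gave 1 higher and 2 lower calls among the 25, where 4.16% and 4.83% of 2981 tested hairpins were called, and the median log2 fold change was -0.237 beside -0.0454 for all hairpins. The comparison of the serum time points gave 1 higher and 1 lower call, where 3.43% and 4% of 3028 were called, with medians of 0.173 and -0.0155. These counts were near the background. The 2 comparisons share the Serum/LIF day 7 libraries. Without library A, B or C of Serum/LIF day 7, 1 lower call was left each time in 2i GFP- against Serum/LIF day 7, and none in Serum/LIF day 7 against Serum/LIF day 0. The lower calls over all hairpins then numbered 56, 54 and 57 in place of 144, and 54, 68 and 52 in place of 121. The day 7 against day 0 comparison had 2 lower calls without library A of day 0 and 2 higher calls without its library B. Nothing is read from this change, since the counts over all hairpins in these fits are not set beside it.

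With no fold limit, an adjusted p under 0.05 was reached by 3 higher and 5 lower hairpins of the 5 genes in 2i GFP- against Serum/LIF day 7, where 8.86% and 8.42% of all tested hairpins reached it. In Serum/LIF day 7 against Serum/LIF day 0 it was reached by 5 higher and 1 lower, where 7.5% and 5.85% of all tested hairpins did. The 5 higher ones were hairpins 2905, 2908 and 2909 of KCNH2 and 3455 and 3458 of NPAS3, and the lower one was hairpin 2907 of KCNH2.

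KCNH2, the potassium channel gene, had the highest mean summed level of the 5 genes in 2i GFP+ cells, where its 5 hairpins together reached 13110 ± 1586 CPM, against 2724 ± 281 CPM in 2i GFP-, 3076 ± 141 CPM in Serum/LIF day 7 and 1764 ± 54.7 CPM in Serum/LIF day 0 cells (SD, n = 3 each). The sum ran from 11630 to 14780 CPM in 2i GFP+ libraries and from 1702 to 3221 CPM in the other 9. Hairpins 2905, 2908 and 2909 were high in 2i GFP+ cells, and 2906 and 2907 were low.

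Hairpin 2908 of KCNH2 held 5532, 4581 and 6020 CPM in the A, B and C libraries of 2i GFP+, 951, 941 and 737 CPM in 2i GFP-, 1126, 1410 and 1402 CPM in Serum/LIF day 7, and 517, 444 and 361 CPM in Serum/LIF day 0. No group overlapped another, and library B of 2i GFP+ lay near A and C. The log2 fold change was 2.67 (SE 0.198) in 2i GFP+ against 2i GFP- and 2.09 (SE 0.166) in 2i GFP+ against Serum/LIF day 7, and with total count scaling 1.94 and 1.32. The hairpin also gained in cells kept in serum, where it was 2.99-fold higher in Serum/LIF day 7 than in Serum/LIF day 0 cells (log2 fold change 1.58, SE 0.165, edgeR adjusted p = 0.00153), and this call was kept under each of the 14 alternative analyses. Against Serum/LIF day 7, 2i GFP- cells had it lower within the fold limit (log2 fold change -0.58, SE 0.132, edgeR adjusted p = 0.0181).

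Hairpin 2905 of KCNH2 held 4548, 1832 and 4831 CPM in 2i GFP+, 1153, 1232 and 1068 CPM in 2i GFP-, 963, 892 and 859 CPM in Serum/LIF day 7, and 555, 504 and 521 CPM in Serum/LIF day 0. The 4 groups were apart from each other, in descending order as listed, and library B was the lowest of 2i GFP+. With total count scaling library B of 2i GFP+ held 1153 CPM, just below 2i GFP- at 1158 to 1348 CPM. The log2 fold change of hairpin 2905 was 1.73 (SE 0.364) in 2i GFP+ against 2i GFP-, 2.03 (SE 0.103) without library B and 1.05 with total count scaling, where it was not called. It was not called either with a replicate block, or without library A or C of 2i GFP-, at 1.73 and 1.67. In the tested comparisons it was higher within the fold limit, by 0.35 on the log2 scale (SE 0.101, edgeR adjusted p = 0.042) in 2i GFP- against Serum/LIF day 7 and by 0.79 (SE 0.121, edgeR adjusted p = 0.00621) in Serum/LIF day 7 against Serum/LIF day 0.

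Hairpin 2909 of KCNH2 held 1489, 8314 and 1973 CPM in 2i GFP+, 474, 591 and 308 CPM in 2i GFP-, 495, 443 and 600 CPM in Serum/LIF day 7, and 231, 349 and 228 CPM in Serum/LIF day 0. All 2i GFP+ libraries lay above all others, but library B was several times above A and C, in the opposite direction to hairpin 2905. The log2 fold change in 2i GFP+ against 2i GFP- was 3.20 (SE 0.792) with library B and 1.93 (SE 0.292) without it, and it was not called without library A, B or C of 2i GFP-, at 3.22, 3.44 and 2.97. In Serum/LIF day 7 against Serum/LIF day 0 it was 0.93 higher on the log2 scale, just within the fold limit and so not called (SE 0.232, edgeR adjusted p = 0.0352).

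The remaining pair of KCNH2 hairpins went the other way. Hairpin 2906 held 60.1, 54.1 and 85.9 CPM in 2i GFP+, 270, 111 and 272 CPM in 2i GFP-, 332, 296 and 332 CPM in Serum/LIF day 7, and 345, 392 and 475 CPM in Serum/LIF day 0, so that the groups were again apart, in ascending order as listed. Between 2i GFP+ and 2i GFP- the log2 fold change was -1.65 (SE 0.658), and in 2i GFP+ against Serum/LIF day 7 it was -2.21 (SE 0.449) and was not called without library A or C of Serum/LIF day 7, at -2.18 and -2.17. Hairpin 2907 had no count in any 2i GFP+ library, 29.1, 20.8 and 13.6 CPM in 2i GFP-, 23.8, 26.2 and 28.1 CPM in Serum/LIF day 7, and 156, 100 and 118 CPM in Serum/LIF day 0. It was at least 15.5-fold lower in 2i GFP+ than in 2i GFP- cells and at least 19-fold lower than in Serum/LIF day 7 cells, with a floor of 3 counts in each 2i GFP+ library that covers counting error only, because reads copied by PCR without molecular identifiers are not independent molecules.

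Cells kept in serum also lost hairpin 2907, which was 4.76-fold lower in Serum/LIF day 7 than in Serum/LIF day 0 (log2 fold change -2.25, SE 0.445, edgeR adjusted p = 0.0159). The groups did not overlap, but this call was lost without library A, B or C of Serum/LIF day 7, with log2 fold changes of -2.20, -2.25 and -2.31 and edgeR adjusted p of 0.0733, 0.0673 and 0.0725. With all 4 groups in 1 fit it was also lost (log2 fold change -2.26, edgeR adjusted p = 0.231). Its log2 fold change in 2i GFP- against Serum/LIF day 7 was -0.30 (SE 0.773, edgeR adjusted p = 0.862).

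The KCNH2 hairpins thus differed among themselves in unsorted serum cells as well. The range of log2 fold changes over the 5 hairpins was 3.83 in Serum/LIF day 7 against Serum/LIF day 0, beside a median of 2.02 over 657 genes with at least 3 tested hairpins. Hairpin 2907 alone set the low end of this range, at -2.25, and the others ran from -0.33 to 1.58. In 2i GFP- against Serum/LIF day 7 the range was 0.931, beside a median of 1.88 over 642 genes.

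PODXL, the podocalyxin gene, had summed levels of 2165, 1170 and 2293 CPM in 2i GFP+, 1293, 770 and 1070 CPM in 2i GFP-, 1584, 1514 and 1300 CPM in Serum/LIF day 7, and 1645, 1487 and 1357 CPM in Serum/LIF day 0. Library B of 2i GFP+ fell below every serum library and within the range of 2i GFP-, so the sums of 2i GFP+ overlapped those of each other group.

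Hairpin 3420 carried most of the PODXL signal. It held 1626, 901 and 1575 CPM in 2i GFP+, 795, 497 and 677 CPM in 2i GFP-, 813, 844 and 686 CPM in Serum/LIF day 7, and 861, 764 and 632 CPM in Serum/LIF day 0. The 2i GFP+ libraries lay above all others, and the other 3 groups overlapped. With total count scaling library B of 2i GFP+ held 567 CPM, within 2i GFP- at 544 to 865 CPM. The log2 fold change in 2i GFP+ against 2i GFP- was 1.11 (SE 0.325), just past the fold limit, and the hairpin passed both thresholds in only 3 of 14 alternatives, with a log2 fold change between 0.40 and 1.29. Without library A or C of 2i GFP+, or A, B or C of 2i GFP-, it was no longer called, with log2 fold changes of 0.93, 1.02, 1.27, 0.95 and 1.12. In 2i GFP+ against Serum/LIF day 7 the log2 fold change was 0.87 (SE 0.276), or 1.04 (SE 0.117) without library B of 2i GFP+. Only the value without library B was called there.

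Hairpin 3423 of PODXL held 153, 251 and 150 CPM in 2i GFP+, 51, 24.3 and 31.8 CPM in 2i GFP-, 72.4, 54 and 34.9 CPM in Serum/LIF day 7, and 73.6, 46.8 and 23.3 CPM in Serum/LIF day 0. Its level was low everywhere, yet each 2i GFP+ library lay above each other library. The log2 fold change was 2.45 (SE 0.698) in 2i GFP+ against 2i GFP- and 2.09 (SE 0.562) without library B. Without library A of 2i GFP+, or A, B or C of 2i GFP-, it was not called, with log2 fold changes of 2.50, 2.79, 2.24 and 2.36. The call was also lost with total count scaling and with a replicate block. Outside the GFP+ cells it did not pass the test, at -0.59 (SE 0.587, edgeR adjusted p = 0.579) in 2i GFP- against Serum/LIF day 7 and 0.17 (SE 0.662, edgeR adjusted p = 0.898) in Serum/LIF day 7 against Serum/LIF day 0.

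The other PODXL hairpins were level or low in sorted cells. Hairpin 3421 held 15.1, 0 and 0 CPM in 2i GFP+, 76.3, 47.3 and 63.2 CPM in 2i GFP-, 186, 167 and 142 CPM in Serum/LIF day 7, and 0, 235 and 218 CPM in Serum/LIF day 0. The count of 0 in Serum/LIF day 0 library A stood beside 1245 and 944 counts in B and C. In 2i GFP- cells hairpin 3421 was 2.64-fold lower than in Serum/LIF day 7 cells (log2 fold change -1.40, SE 0.317, edgeR adjusted p = 0.0179). This call was lost without library A, B or C of Serum/LIF day 7, with log2 fold changes of -1.30, -1.39 and -1.49 and edgeR adjusted p of 0.0862, 0.0688 and 0.0577. With all 4 groups in 1 fit it was also lost (log2 fold change -1.38, edgeR adjusted p = 0.999).

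Hairpin 3419 of PODXL held 372, 18.3 and 568 CPM in 2i GFP+, 336, 201 and 286 CPM in 2i GFP-, 498, 441 and 436 CPM in Serum/LIF day 7, and 656, 380 and 440 CPM in Serum/LIF day 0. Library B lay below and library C above all 2i GFP- libraries. The log2 fold change in 2i GFP+ against 2i GFP- was 0.24 (SE 1.06), 0.78 (SE 0.33) without library B and -0.41 with total count scaling, so its direction was not settled. It was lower within the fold limit in 2i GFP- against Serum/LIF day 7 (log2 fold change -0.74, SE 0.208, edgeR adjusted p = 0.0411). Hairpin 3422 had no count in 2i GFP+, 0 to 35.7 CPM in 2i GFP-, 1.47 to 15.6 CPM in Serum/LIF day 7 and 44.3 to 61.5 CPM in Serum/LIF day 0. It was thus also low in unsorted Serum/LIF day 7 cells, and its log2 fold change of -2.68 in Serum/LIF day 7 against Serum/LIF day 0 did not pass the test (SE 1.04, edgeR adjusted p = 0.13).

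CPT1B, the carnitine palmitoyltransferase gene, had the lowest summed level of the 5 in 2i GFP+ cells. Its hairpins together held 58.4, 328 and 12.8 CPM in 2i GFP+, 896, 733 and 1005 CPM in 2i GFP-, 384, 314 and 398 CPM in Serum/LIF day 7, and 415, 657 and 457 CPM in Serum/LIF day 0. The 2i GFP- sums lay above all others. Most of the 2i GFP- sum came from 1 hairpin.

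Hairpin 3551 of CPT1B held 43.3, 0 and 12.8 CPM in 2i GFP+, 632, 480 and 674 CPM in 2i GFP-, 70, 38 and 68 CPM in Serum/LIF day 7, and 34.7, 191 and 180 CPM in Serum/LIF day 0. Each 2i GFP- library lay well above each library of any other group. In 2i GFP- cells it was 10.2-fold higher than in Serum/LIF day 7 cells (log2 fold change 3.35, SE 0.283, edgeR adjusted p = 0.000188), which put it at rank 9 by fold change and rank 11 by p among 2981 tested hairpins. Leaving out any 1 library kept the call, with log2 fold changes from 3.11 to 3.50, but with all 4 groups in 1 fit it was lost (log2 fold change 3.37, edgeR adjusted p = 0.349). Whether this value took part in the choice of CPT1B is not known. In 2i GFP+ against 2i GFP- its log2 fold change was -4.95 (SE 1.6), or -4.40 (SE 0.614) without library B, and only the value without library B was called. The high value was thus in the GFP- fraction of 2i cells, whereas hairpins 2905, 2908 and 2909 of KCNH2 were high in the GFP+ fraction.

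The other CPT1B hairpins also had their lowest mean level in 2i GFP+, but none was called higher in 2i GFP- against Serum/LIF day 7. Only hairpin 3549 had the same order of group means as hairpin 3551, with all neighbouring groups overlapping. Hairpin 3552 held 15.1, 320 and 0 CPM in 2i GFP+, 169, 163 and 198 CPM in 2i GFP-, 192, 195 and 234 CPM in Serum/LIF day 7, and 133, 151 and 117 CPM in Serum/LIF day 0, with library B of 2i GFP+ the highest of all 12 libraries and C the lowest. With total count scaling library B held 201.6 CPM, below Serum/LIF day 7 at 215.5 to 261.8 CPM. The log2 fold change of hairpin 3552 in 2i GFP+ against 2i GFP- was -0.53 (SE 2.01), or -4.54 (SE 1.7) without library B, and neither was called. Against Serum/LIF day 7 the value in 2i GFP+ was -0.77 (SE 2.05), or -4.76 (SE 1.68) without library B, and only the latter was called. Hairpin 3553 had no count in 2i GFP+, 57, 0 and 87 CPM in 2i GFP-, 83.8, 51.1 and 55 CPM in Serum/LIF day 7, and 137, 219 and 79.8 CPM in Serum/LIF day 0. It was at least 46.3-fold lower in 2i GFP+ than in Serum/LIF day 7 cells. The remaining hairpins, 3549 and 3550, never exceeded 50.1 and 95.4 CPM, and their 2i GFP+ values were 0 except for 12 counts of hairpin 3550 in library B. Without library B, hairpin 3550 was called lower in 2i GFP+ against both 2i GFP- and Serum/LIF day 7, although it was not called with library B.

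None of these 4 passed the test in 2i GFP- against Serum/LIF day 7, where their log2 fold changes ran from -0.39 to 2.37 with standard errors up to 2.03. The highest of them, 2.37 for hairpin 3549, rested on 255 counts in 2i GFP- and 88 in Serum/LIF day 7. The range over the 5 CPT1B hairpins was 3.74, beside the median of 1.88 over all genes. In Serum/LIF day 7 against Serum/LIF day 0, hairpins 3549, 3550, 3551 and 3553 had log2 fold changes between -1.47 and -1.20 and hairpin 3552 had 0.63, and none passed the test (edgeR adjusted p of 0.13 to 0.785).

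AFF1, the elongation complex scaffold gene, had summed levels of 1737, 2627 and 1740 CPM in 2i GFP+, 1227, 1238 and 1384 CPM in 2i GFP-, 1906, 1941 and 1890 CPM in Serum/LIF day 7, and 1243, 1312 and 1570 CPM in Serum/LIF day 0. With TMM factors the sums of 2i GFP- lay below those of Serum/LIF day 7 and of 2i GFP+, and overlapped those of Serum/LIF day 0. The order against 2i GFP+ depended on the scaling. With total count scaling, libraries A and C of 2i GFP+ lay below the 2i GFP- libraries and only library B above them. No AFF1 hairpin was called in 2i GFP+ against 2i GFP- or against Serum/LIF day 7.

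Hairpin 3144 of AFF1 held 544, 470 and 352 CPM in 2i GFP+, 265, 349 and 315 CPM in 2i GFP-, 666, 791 and 694 CPM in Serum/LIF day 7, and 381, 359 and 629 CPM in Serum/LIF day 0. The Serum/LIF day 7 libraries were the highest and the 2i GFP- libraries the lowest. With total count scaling 2i GFP+ at 247 to 388 CPM overlapped 2i GFP- at 289 to 382 CPM. Serum/LIF day 7 at 749 to 883.3 CPM then overlapped Serum/LIF day 0 at 432.5 to 752.4 CPM. In 2i GFP- cells the hairpin was 2.3-fold lower than in Serum/LIF day 7 cells (log2 fold change -1.20, SE 0.153, edgeR adjusted p = 0.00116), and leaving out any 1 library kept the call, with log2 fold changes from -1.30 to -1.10. With all 4 groups in 1 fit the call was lost (log2 fold change -1.18, edgeR adjusted p = 0.146). Its log2 fold change of 0.62 (SE 0.413) in 2i GFP+ against 2i GFP- turned to -0.13 with total count scaling.

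Hairpin 3145 of AFF1 held 715, 1600 and 1017 CPM in 2i GFP+, 525, 460 and 526 CPM in 2i GFP-, 727, 708 and 743 CPM in Serum/LIF day 7, and 529, 585 and 558 CPM in Serum/LIF day 0. The 2i GFP- libraries lay below all other libraries. With total count scaling library A of 2i GFP+ held 509 CPM of the hairpin, within 2i GFP- at 504 to 571 CPM. Against Serum/LIF day 7, 2i GFP- cells held less of it, within the fold limit (log2 fold change -0.52, SE 0.12, edgeR adjusted p = 0.0186), and in 2i GFP+ against 2i GFP- its log2 fold change was 1.22 (SE 0.395), or 0.79 (SE 0.202) without library B. Hairpin 3147 had the same order of 2i GFP- and Serum/LIF day 7, at 134 to 141 CPM in 2i GFP- and 180 to 211 CPM in Serum/LIF day 7, but did not pass the test (log2 fold change -0.46, SE 0.23, edgeR adjusted p = 0.218).

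Hairpin 3146 of AFF1 ran the other way, at 41.7 to 233 CPM in 2i GFP+, 287 to 402 CPM in 2i GFP-, 223 to 296 CPM in Serum/LIF day 7 and 166 to 235 CPM in Serum/LIF day 0. Hairpin 3143 was rare, with 178 counts in 2i GFP+, 30 in 2i GFP-, 356 in Serum/LIF day 7 and 572 in Serum/LIF day 0 over the 3 libraries of each group. Its log2 fold change of 2.77 in 2i GFP+ against 2i GFP- had a standard error of 2.4, and neither hairpin passed the test in 2i GFP- against Serum/LIF day 7 or in Serum/LIF day 7 against Serum/LIF day 0 (edgeR adjusted p of 0.299 to 0.597).

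NPAS3, the neuronal transcription factor gene, had the narrowest range of fold changes of the 5 genes in both comparisons that do not include 2i GFP+. Its summed level was 3746, 4360 and 3740 CPM in 2i GFP-, 3969, 3867 and 3707 CPM in Serum/LIF day 7, and 3334, 3137 and 3020 CPM in Serum/LIF day 0. The range of log2 fold changes over its 5 hairpins was 0.637 in 2i GFP- against Serum/LIF day 7 and 1.06 in Serum/LIF day 7 against Serum/LIF day 0, beside medians over all genes of 1.88 and 2.02. No NPAS3 hairpin was called in either. Each NPAS3 hairpin had at least 2015 counts in each of these groups. Some hairpins at the ends of wider ranges were rarer, such as 3143 of AFF1 with 30 counts in 2i GFP- and 3422 of PODXL with 130 in Serum/LIF day 7. Whether the ranges depend on such counts was not tested.

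In 2i GFP+ the NPAS3 sum was 2622, 18850 and 2956 CPM, so that library B alone was above every other library while A and C were below all libraries of the other 3 groups. Hairpin 3457 held 1160, 12440 and 1151 CPM in 2i GFP+, 1021, 962 and 757 CPM in 2i GFP-, 782, 765 and 801 CPM in Serum/LIF day 7, and 731, 576 and 545 CPM in Serum/LIF day 0. Between 2i GFP+ and 2i GFP- the log2 fold change was 2.55 (SE 1.05) with library B and 0.35 (SE 0.164) without it. Hairpin 3455 held 53, 2434 and 99.6 CPM in 2i GFP+, 793, 1104 and 984 CPM in 2i GFP-, 1001, 971 and 923 CPM in Serum/LIF day 7, and 636, 684 and 498 CPM in Serum/LIF day 0. Libraries A and C of 2i GFP+ thus lay below, and library B above, all 9 libraries of the other groups. Its log2 fold change was -0.03 (SE 1.38) with library B and -3.65 (SE 0.361) without it, and only the value without library B was called.

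Hairpin 3458 of NPAS3 held 1032, 3518 and 1339 CPM in 2i GFP+, 726, 791 and 768 CPM in 2i GFP-, 623, 546 and 567 CPM in Serum/LIF day 7, and 363, 313 and 270 CPM in Serum/LIF day 0. With TMM factors the groups did not overlap and stood in descending order as listed, as for hairpin 2905 of KCNH2. With total count scaling library A of 2i GFP+ held 735 CPM, below 2i GFP- at 790 to 865 CPM. The log2 fold change in 2i GFP+ against 2i GFP- was 1.46 (SE 0.528), or 0.65 (SE 0.155) without library B, and neither was called. Against Serum/LIF day 7, the value in 2i GFP+ was 1.85 (SE 0.531), or 1.04 (SE 0.141) without library B, and was not called without library A, B or C of Serum/LIF day 7, at 1.90, 1.80 and 1.85. With RLE or total count scaling or a replicate block this value was not called either. In Serum/LIF day 7 against Serum/LIF day 0 the hairpin was higher within the fold limit (log2 fold change 0.88, SE 0.17, edgeR adjusted p = 0.0142), and in 2i GFP- against Serum/LIF day 7 likewise (log2 fold change 0.40, SE 0.117, edgeR adjusted p = 0.0462).

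The last pair of NPAS3 hairpins was low in 2i GFP+ cells in all 3 libraries. Hairpin 3456 held 374, 415 and 357 CPM in 2i GFP+, 1054, 1263 and 1017 CPM in 2i GFP-, 1348, 1367 and 1229 CPM in Serum/LIF day 7, and 1462, 1401 and 1610 CPM in Serum/LIF day 0, and its log2 fold change in 2i GFP+ against 2i GFP- was -1.48 (SE 0.295), or -1.60 (SE 0.164) without library B, and it was not called without library B of 2i GFP-, at -1.36. Hairpin 3454 held 3.69, 35.2 and 10.4 CPM in 2i GFP+, 153, 241 and 214 CPM in 2i GFP-, 215, 218 and 188 CPM in Serum/LIF day 7, and 141, 164 and 98 CPM in Serum/LIF day 0. Between the sorted fractions the log2 fold change was -3.53 (SE 1.06), or -4.83 (SE 0.737) without library B, and the call was lost without library A or C of 2i GFP+, at -3.14 and -3.26, or without library A, B or C of 2i GFP-, at -3.70, -3.36 and -3.50. It was lost as well with RLE scaling, no filter, the filter at 10 CPM and a replicate block. Hairpins 3456 and 3454 did not pass the test in 2i GFP- against Serum/LIF day 7, with log2 fold changes of -0.24 and -0.02 (edgeR adjusted p of 0.184 and 0.971). They did not pass it in Serum/LIF day 7 against Serum/LIF day 0 either, with -0.18 and 0.63 (edgeR adjusted p of 0.305 and 0.196), although the libraries of the 2 groups did not overlap for either hairpin.

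Each gene was then set beside its relatives in the library. KCNH2 and NPAS3 share the PAS domain, and 92 other hairpins in the table target 19 further PAS domain genes, among them channels (KCNH1, KCNH3, KCNH5, KCNH7, KCNH8), clock proteins (PER1 to PER3), bHLH-PAS partners (ARNT, ARNT2, NPAS1) and a single protein kinase, PASK. In Serum/LIF day 7 against Serum/LIF day 0, 6 of 88 tested were called higher and 2 lower, where 3.43% and 4% of all tested hairpins were, with a median log2 fold change of 0.215 beside -0.0155 for all hairpins. Of 85 tested in 2i GFP- against Serum/LIF day 7, 2 were called higher and 3 lower, where 4.16% and 4.83% of all were, with a median of -0.103. With 2i GFP+ against 2i GFP-, 6 of 78 were called higher and 15 lower, where 8.58% and 23.5% of all were, and in 2i GFP+ against Serum/LIF day 7, 9 of 84 were called higher and 23 lower, where 9.81% and 31.9% of all were.

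Hairpin 2915 of KCNH7, a channel of the same subfamily as KCNH2, was higher in 2i GFP- than in Serum/LIF day 7 cells (log2 fold change 1.14, SE 0.146, edgeR adjusted p = 0.00116) and higher in Serum/LIF day 7 than in Serum/LIF day 0 cells (1.37, SE 0.217, edgeR adjusted p = 0.00683). Hairpin 3443 of PER3, a circadian repressor, was lower in both (log2 fold change -1.91, SE 0.256, edgeR adjusted p = 0.00146, and -1.06, SE 0.2, edgeR adjusted p = 0.0133). In Serum/LIF day 7 against Serum/LIF day 0, PER3 hairpin 3439 was instead called higher (1.065, SE 0.218, edgeR adjusted p = 0.0182). Hairpin 3441 of PER3 was higher there within the fold limit (0.99, SE 0.186, edgeR adjusted p = 0.0132). In 2i GFP- against Serum/LIF day 7 it was lower within that limit (-0.73, SE 0.156, edgeR adjusted p = 0.0138). Hairpin 2941 of PER1, its paralogue, was higher in Serum/LIF day 7 against Serum/LIF day 0 (1.56, SE 0.269, edgeR adjusted p = 0.00978), and hairpin 2903 of KCNH1 was lower there (-1.57, SE 0.322, edgeR adjusted p = 0.0182).

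The mouse gene Cpt1b lies next to Chkb, a choline kinase gene, in the RefSeq gene table of GRCm38.p6, and of the carnitine and choline list only CHKA and CHKB have hairpins, 5 each. Of these 10, none was called in 2i GFP- against Serum/LIF day 7. Hairpins 1915 and 1914 of CHKB were lower there within the fold limit (log2 fold changes -0.69 and -0.39, edgeR adjusted p of 0.0148 and 0.0326). In Serum/LIF day 7 against Serum/LIF day 0, 1 was called higher, namely hairpin 1915 of CHKB (log2 fold change 1.21, SE 0.312, edgeR adjusted p = 0.0393). Hairpin 1914 was higher there within the fold limit (log2 fold change 0.63, SE 0.106, edgeR adjusted p = 0.00888). Of the list of AF4 family and elongation factors, only CDK9, the kinase of the elongation complex that AFF1 organises, has hairpins, and its calls went in both directions. Hairpin 780 was higher in Serum/LIF day 7 against Serum/LIF day 0 (log2 fold change 1.25, SE 0.344, edgeR adjusted p = 0.0484) and lower in 2i GFP- against Serum/LIF day 7 (-1.26, SE 0.265, edgeR adjusted p = 0.0129), whereas hairpin 778 was higher in 2i GFP- against Serum/LIF day 7 (1.59, SE 0.426, edgeR adjusted p = 0.034). No hairpin against the listed relatives and partners of PODXL is in the table.

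For the hairpin of each gene with the highest mean level, the pair of other hairpins with the most similar profile over the 12 libraries was found by Pearson's correlation of log2(CPM + 1), given as a description because the libraries fall into 4 groups. Hairpin 2908 of KCNH2 was most like hairpin 748 of MAPK6 (r = 0.987) and hairpin 2968 of NAGS (r = 0.981), and the same pair led with total count scaling. Hairpin 3551 of CPT1B was most like hairpins 975 of NTRK3 (r = 0.95) and 1144 of NTRK2 (r = 0.927), again under both scalings. Hairpin 3457 of NPAS3 was most like hairpin 265 of BMPR2 (r = 0.989), which had 3090, 16513 and 3336 counts in libraries A, B and C of 2i GFP+ and so shared the excess in library B, and hairpin 92 of PFKL (r = 0.973). With total count scaling BMPR2 still led, followed by hairpin 2958 of SEPHS1 (r = 0.94) in place of PFKL. For hairpin 3420 of PODXL these were PKN3 hairpin 370 (r = 0.932) and STK16 hairpin 2478 (r = 0.93), and for hairpin 3145 of AFF1 they were AK3 hairpin 1772 (r = 0.924) and PSKH1 hairpin 1632 (r = 0.923). For PODXL and AFF1, total count scaling gave another pair of hairpins.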

How the data were processed

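Integrated hairpins had been amplified by PCR from genomic DNA and sequenced on a NextSeq instrument, and the authors aligned the reads with Bowtie2 and counted them with a Dharmacon Python script. The deposited values are raw counts per hairpin, not normalized. Versions and the hairpin reference were not given in the sources used here, and the titles call the libraries combined without explaining the word. Within each group, no pair of libraries agreed within the sampling noise of read counts. Because reads copied by PCR are not independent molecules, this does not show that the libraries are separate replicates. Each library was still counted as 1 replicate.

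Each comparison was fitted alone on the whole table with edgeR 4.0.16 in R 4.3.3 (TMM, glmQLFit and glmQLFTest). A hairpin was tested if at least 3 compared libraries had 0.5 CPM or more, and p-values were adjusted by Benjamini-Hochberg over all tested hairpins. A standard error is the size of the log2 fold change divided by the square root of F. Fold changes carry the TMM factors of their own comparison, and printed CPM those of all 12 libraries. The fits were tested on simulated data with known folds. Alternatives were RLE and total count scaling, no filter, a filter at 10 CPM, exactTest (the study's test), DESeq2 1.42.0, 1 fit over all 4 groups, a replicate block and leaving out each library, which kept the hairpins of the full fit. Removing the fold limit was added after seeing the data.

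The members and lists were chosen with earlier results of these data known. All hairpins of the 5 genes are accounted for. From each list up to 4 called hairpins with the smallest p in the comparisons without 2i GFP+ are named, and for the hairpin with the highest mean CPM of each gene the 2 most correlated ones.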

Additional observations from a re-analysis of the deposited data

How the results depend on the processing

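Of the calls named for the 5 genes, none changed direction under an alternative. In 2i GFP+ against 2i GFP- (5 higher, 3 lower), total count scaling gave 2 higher and 5 lower, DESeq2 6 lower, all 4 groups in 1 fit 9 higher and 5 lower, and leaving out 1 library 1 to 5 higher and 1 to 6 lower. The counts over all hairpins, 223 higher and 610 lower, moved too. Total count scaling gave 124 and 719, DESeq2 821 lower, and all 4 groups in 1 fit 296 and 856. In 2i GFP+ against Serum/LIF day 7 (5 higher, 6 lower), RLE and total count scaling each gave 3 higher, and leaving out 1 library gave 2 to 6 higher and 3 to 9 lower. Over all hairpins RLE gave 257 higher and total count scaling 165, in place of 285. In 2i GFP- against Serum/LIF day 7 (1 higher, 2 lower), all 4 groups in 1 fit, which adds the 2i GFP+ and Serum/LIF day 0 libraries to the scaling and the estimate of spread, gave 0 higher and 0 lower, no fold limit gave 3 and 5, and leaving out 1 library gave 1 to 3 lower and 1 higher each time. Over all hairpins, no fold limit gave 264 and 251 in place of 124 and 144. In Serum/LIF day 7 against Serum/LIF day 0 (1 higher, 1 lower), DESeq2 gave 4 lower, all 4 groups in 1 fit 0 lower, no fold limit 5 higher, and leaving out 1 library 1 to 2 higher and 0 to 2 lower. Over all hairpins, no fold limit gave 227 higher in place of 104. Where no count over all hairpins is given, nothing is read from a change. The cause of these changes was not tested.

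Deviations of same-letter libraries from their group means had correlations of -0.069 to 0.0589 over 2115 hairpins. This does not show that the letters are unpaired, since the study sorted its 2i cultures into both GFP fractions. The main fits used no pairing. With a replicate block, 2i GFP+ against 2i GFP- had 1 higher and 0 lower calls among the 5 genes, where 66 and 1 were left over all hairpins, and 2i GFP+ against Serum/LIF day 7 had 1 and 0, where 86 and 5 were left. 2i GFP- against Serum/LIF day 7 had 1 and 2 (109 and 105 over all), and Serum/LIF day 7 against Serum/LIF day 0 had 1 and 0 (63 and 72 over all).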
